A study of Rattus norvegicus with 192 samples.

Results

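The late steps of cholesterol synthesis, which turn squalene into cholesterol, were followed through 9 genes: Cyp51, Sqle, Lss, Msmo1, Nsdhl, Hsd17b7, Sc5d, Dhcr7 and Tm7sf2. They were chosen by symbol, as the enzymes of this stretch of the pathway, and not by their values. Of the 9 genes, 8 had a probe in the deposited table of 22253 probes, with 1 probe each, and all 8 were among the 11055 probes with enough counts to be tested. Sc5d, which encodes a sterol desaturase, was not analysed here.

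Azole fungicides are made to block the fungal form of CYP51, the enzyme that removes a methyl group from lanosterol, and the series holds 8 of them. Cholesterol synthesis in liver cells is steered by the SREBP transcription factors, which sit in the endoplasmic reticulum while sterols are plentiful and are cut and sent to the nucleus when sterols run low, where they switch on the genes of the mevalonate pathway and of the late steps. SQLE adds oxygen to squalene and LSS folds the product into lanosterol. CYP51 then demethylates lanosterol, TM7SF2 reduces the double bond that this leaves, MSMO1, NSDHL and HSD17B7 take off the remaining methyl groups in a repeated cycle, and DHCR7 carries out a last reduction that yields cholesterol.

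Male rat primary hepatocytes, isolated from liver and kept on collagen-coated plates, were treated for 24 h and profiled with TempO-Seq, a targeted assay in which pairs of probes are joined on the RNA and counted by sequencing. The labels give no strain, age, animal or culture. In all, 174 libraries were from 29 chemicals at 6 doses, with 1 library per dose. Doses ran from 0.4 to 100 µM or from 0.14 to 33.3 µM. Another 9 libraries were from reference chemicals at 1 dose each, and 9 were from cells given the 0.1% DMSO solvent alone. The reference chemicals were dexamethasone, testosterone, 17beta-estradiol and sulforaphane at 10 µM, oltipraz at 30 µM and TCPOBOP at 1.5 µM. They also included Pregnenolone 16alpha carbinonitrile at 15 µM, a compound whose label begins with WY at 15 µM and one whose label begins with GW at 1.5 µM. The 8 azoles were the imidazoles imazalil and triflumizole and the triazoles cyproconazole, flusilazole, hexaconazole, tetraconazole, triadimefon and triticonazole. The other 21 chemicals were the chloroacetamides acetochlor, alachlor and dimethenamid, the triazines ametryn and simazine, the perfluorinated acids PFOA and PFOS, and Bensulide, carbaryl, Bisphenol A, cyprodinil, cyclanilide, DEHP, dithiopyr, dichlobenil, fludioxonil, etoxazole, oxadiazon, isoxaflutole, triclosan and S-Bioallethrin.

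Total counts ran from 582071 in the sulforaphane library to 11249014, with a median of 5745085. The libraries came from 3 plates, named in the submitters' well names: plate 1 held both imidazoles, 3 triazoles and 9 of the other chemicals, plate 2 held cyproconazole, triticonazole and 12 of the other chemicals, and plate 3 held triadimefon and 3 reference chemicals. Simazine, counted under plate 2, was the only series on more than 1 plate, with its 3 higher doses on plate 1 and its 3 lower doses on plate 2. DMSO replicate 1 stood apart, with 1042 CPM (counts scaled to the size of the library) of Sqle and 303 CPM of Hsd17b7, and was left out, so that DMSO means replicates 2 to 9 below. DMSO replicate 5 and 12 treated libraries of 8 chemicals shared a profile with little Sqle: a library score that is 1 in replicate 5, computed without the 8 genes, was above 0.5 in those 12. Hepatocyte markers were abundant in DMSO, with 17541 CPM of Ttr and 4883 CPM of Alb, while of the markers of other liver cells the bile duct marker Epcam had 20.6 CPM, the macrophage marker Clec4f 20.3 CPM and the stellate cell marker Col1a2 2.25 CPM, and Col1a1 and Krt7 were at 0. The summed levels of 6 macrophage markers ran from 44.8 to 164 CPM in azole libraries, from 32.8 to 76.0 CPM in those of other chemicals and from 44.6 to 74.9 CPM in DMSO.

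The promoters of 3 of these genes, those whose RNA was higher with azoles than with the other chemicals under most of the settings tried, are shown first. RefSeq promoter windows of the rat genome build GRCr8, from 250 bases before to 50 bases after the gene start, were found for 7 of the 8 genes and not for Sqle. Capitals mark the letters CCAAT and GGGCGG or their reverse complements. The Cyp51 window is chr4:30991443-30991742 on the plus strand, the Hsd17b7 window chr13:84722705-84723004 on the minus strand and the Msmo1 window chr16:29746863-29747162 on the plus strand, each written from 5′ to 3′ along the gene.
Cyp51: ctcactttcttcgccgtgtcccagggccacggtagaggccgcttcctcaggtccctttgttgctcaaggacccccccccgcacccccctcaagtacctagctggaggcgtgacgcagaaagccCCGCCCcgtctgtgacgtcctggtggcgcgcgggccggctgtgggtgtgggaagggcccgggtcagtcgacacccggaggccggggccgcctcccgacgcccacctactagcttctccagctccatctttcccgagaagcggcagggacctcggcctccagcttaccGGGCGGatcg
Hsd17b7: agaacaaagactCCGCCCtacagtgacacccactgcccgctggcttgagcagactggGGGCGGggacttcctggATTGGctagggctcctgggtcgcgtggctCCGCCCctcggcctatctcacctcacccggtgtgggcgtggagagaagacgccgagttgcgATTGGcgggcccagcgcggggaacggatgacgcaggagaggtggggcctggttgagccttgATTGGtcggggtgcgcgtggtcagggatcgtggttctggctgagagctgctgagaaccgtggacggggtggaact
Msmo1: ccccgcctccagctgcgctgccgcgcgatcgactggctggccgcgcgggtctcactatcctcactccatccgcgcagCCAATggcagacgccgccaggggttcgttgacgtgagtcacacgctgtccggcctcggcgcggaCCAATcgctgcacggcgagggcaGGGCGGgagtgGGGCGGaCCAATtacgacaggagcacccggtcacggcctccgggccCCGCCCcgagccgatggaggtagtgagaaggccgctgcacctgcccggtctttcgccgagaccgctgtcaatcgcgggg
The GGGCGG letters, on either strand, were in 6 of the 7 windows, against 33.1% of all 33469 promoter windows of this length, and in Dhcr7 they overlapped each other. The CCAAT letters, on either strand, were in 5 of the 7 windows, against 37.5% of all windows, with 5 matches in Nsdhl, 3 each in Msmo1 and Hsd17b7, 2 in Tm7sf2, 1 in Lss and none in Cyp51 and Dhcr7. The letters TCACNCCAC, a form of the sterol regulatory element to which SREBP proteins bind, were in 0 of the 7 windows and in 1.12% of all windows.

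In DMSO, Cyp51 had 262 ± 36.3 CPM (SD, n = 8), with 203 CPM in the lowest replicate, a median of 258 CPM and 305 CPM in the highest, from 827 to 2658 counts. Hsd17b7 was the tightest of the 8 genes, at 61.1 ± 5.35 CPM with a range from 54.1 to 68.2 CPM. Sqle was the widest, at 148 ± 72.6 CPM, with 11.1 CPM in replicate 5 and a median of 161 CPM. CPM values are not scaled for probe or length, so levels are compared here between libraries and not between genes.

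The other 5 genes rested on fewer counts or varied more. Nsdhl had 119 ± 25.0 CPM and a range from 63.0 CPM, in replicate 5, to 150 CPM. Dhcr7 had 20.9 ± 4.0 CPM, Tm7sf2 17.5 ± 3.44 CPM, Lss 13.5 ± 3.02 CPM and Msmo1 11.5 ± 2.54 CPM (SD, n = 8 each), and in these 4 genes a DMSO library held at most 176 counts. A library was said to stand beyond DMSO for a gene where its log2 CPM differed from the DMSO mean by at least 1 and lay outside the DMSO range; with 1 library per dose there is no test of a single library, and in these bulk samples fewer cells of a type and less RNA per cell cannot be told apart.

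Over the 174 dose libraries and 8 genes, 23 of 1392 values lay beyond DMSO on the high side, where 1.61% of all tested probes did, and 26 on the low side, where 2.80% did. Sqle gave 17 of the 23 high values, counted from a DMSO mean that includes replicate 5. Without that replicate 7 values of the 8 genes were high and 63 low, among them 1 high and 36 low for Sqle, with 1.72% of all probes high and 3.65% low. The other 7 genes together gave 6 high values, 2 each for Cyp51, Lss and Msmo1. These came only from triadimefon at 11.1 and 33.3 µM and triticonazole at 100 µM, and from no other azole. In those libraries 1.12%, 1.18% and 5.0% of all probes lay beyond DMSO on the high side.

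Across the 174 dose libraries Cyp51 ran from 111 CPM with fludioxonil at 100 µM to 528 CPM with triadimefon at 33.3 µM, with a median of 260 CPM. Its median over 6 doses was 365 CPM with triadimefon (lowest 205 CPM, highest 528 CPM) and 326 CPM with triticonazole (210 to 526 CPM). The next chemicals in the order were alachlor at 289 CPM, dimethenamid at 287 CPM, fludioxonil at 286 CPM, cyprodinil at 282 CPM and flusilazole at 277 CPM, and the order ended with carbaryl at 236 CPM and dithiopyr at 231 CPM. Triadimefon and triticonazole were the only chemicals whose median lay outside the DMSO range, and neighbours in the rest of the order differed by less than the DMSO SD.

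**Figure D1:**
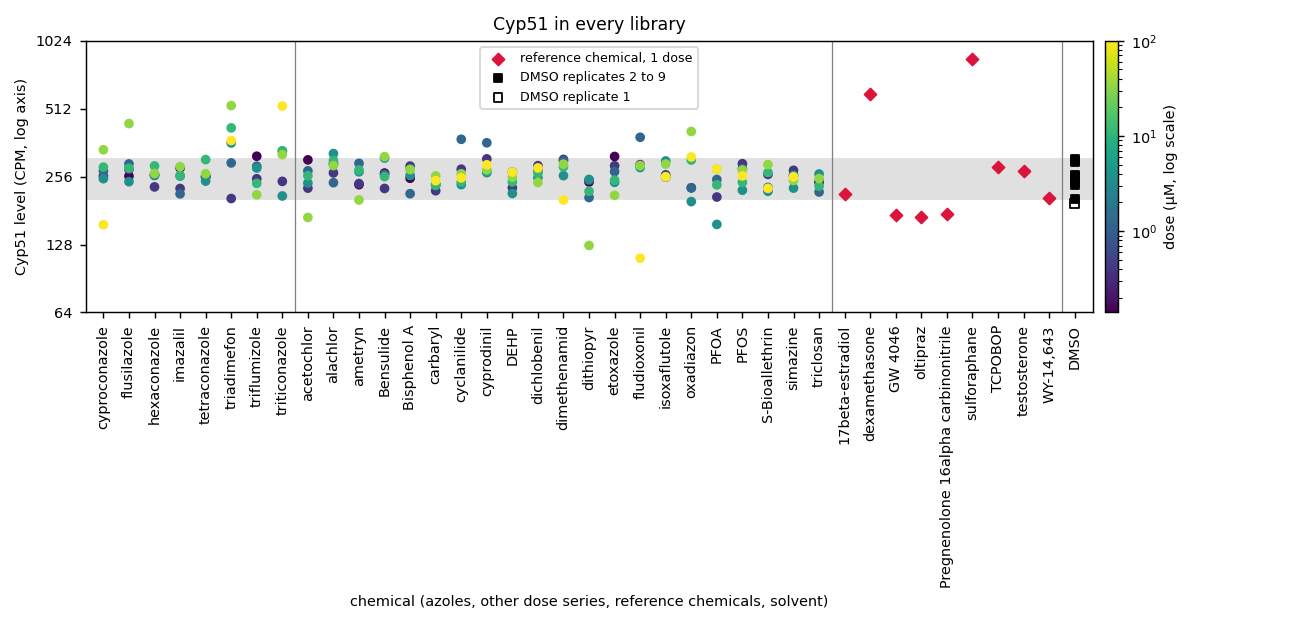
Cyp51 level (CPM, log axis) in every treated library, 1 column per chemical with the dose as colour, beside the DMSO libraries; the grey band is the range of DMSO replicates 2 to 9, 203 to 305 CPM. Triadimefon and triticonazole reach 528 and 526 CPM, and most other chemicals stay within or near the band.

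With triadimefon, Cyp51 had 205, 294, 361, 421, 528 and 370 CPM at 0.4, 1.2, 3.7, 11.1, 33.3 and 100 µM, against 203 to 305 CPM in DMSO. Its 4 highest doses were above every DMSO replicate, and the level at 100 µM was below that at 33.3 µM. Msmo1 followed the same course, with 10.1, 15.3, 17.4, 20.6, 25.2 and 15.4 CPM at the 6 doses, against 7.75 to 15.1 CPM in DMSO, and every triadimefon library but that at 0.4 µM was above DMSO.

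Lss, the lanosterol synthase, had 15.7, 14.6, 15.9, 30.4, 27.7 and 22.2 CPM, against 9.05 to 19.2 CPM in DMSO, so that only the 3 highest triadimefon doses were above the DMSO range. Hsd17b7 had 66.5, 68.9, 74.8, 96.8, 95.3 and 72.5 CPM, against 54.1 to 68.2 CPM in DMSO, and all but the lowest dose were above it. Nsdhl had 140, 161, 159, 184, 200 and 118 CPM, against 63.0 to 150 CPM in DMSO, with the 4 middle doses above the range and the top dose inside it.

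At 33.3 µM triadimefon all 8 genes were above every DMSO replicate, as were 9.72% of all tested probes in that library. Of the 8, 4 were beyond DMSO, where 1.18% of all probes were. The log2 difference from the DMSO mean was 1.02 for Cyp51, 1.05 for Lss, 1.14 for Msmo1 and 1.16 for Sqle. The Sqle mean includes DMSO replicate 5, at 11.1 CPM, and without that replicate only 1 dose library was beyond DMSO on the high side for Sqle. At 11.1 µM 7 of the 8 were above every DMSO replicate (11.4% of all probes), and Lss alone of the genes other than Sqle was beyond DMSO (1.12%). The median log2 difference at 33.3 µM was 0.90 over the 8 genes and 0.89 over 9 tested genes of the earlier mevalonate steps.

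Dexamethasone, a synthetic glucocorticoid, was given at 10 µM as a reference chemical on the same plate. It gave the highest value of the series for Sqle, Lss, Msmo1, Dhcr7 and Tm7sf2 outside DMSO replicate 1. Its single library had 597 CPM of Cyp51, 371 CPM of Sqle, 36.3 CPM of Lss and 26.1 CPM of Msmo1, against DMSO maxima of 305, 228, 19.2 and 15.1 CPM. All 8 genes were above every DMSO replicate (12.0% of all probes were), and these 4 were beyond DMSO (1.29% of all probes). Of the mevalonate genes, 6 of 9 were beyond DMSO on the high side, with a median log2 difference of 1.24, against 1.07 for the 8 genes: Acat2 stood at 1.71, Idi1 at 1.58, Mvd at 1.57 and Fdps at 1.46.

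**Figure D2:**
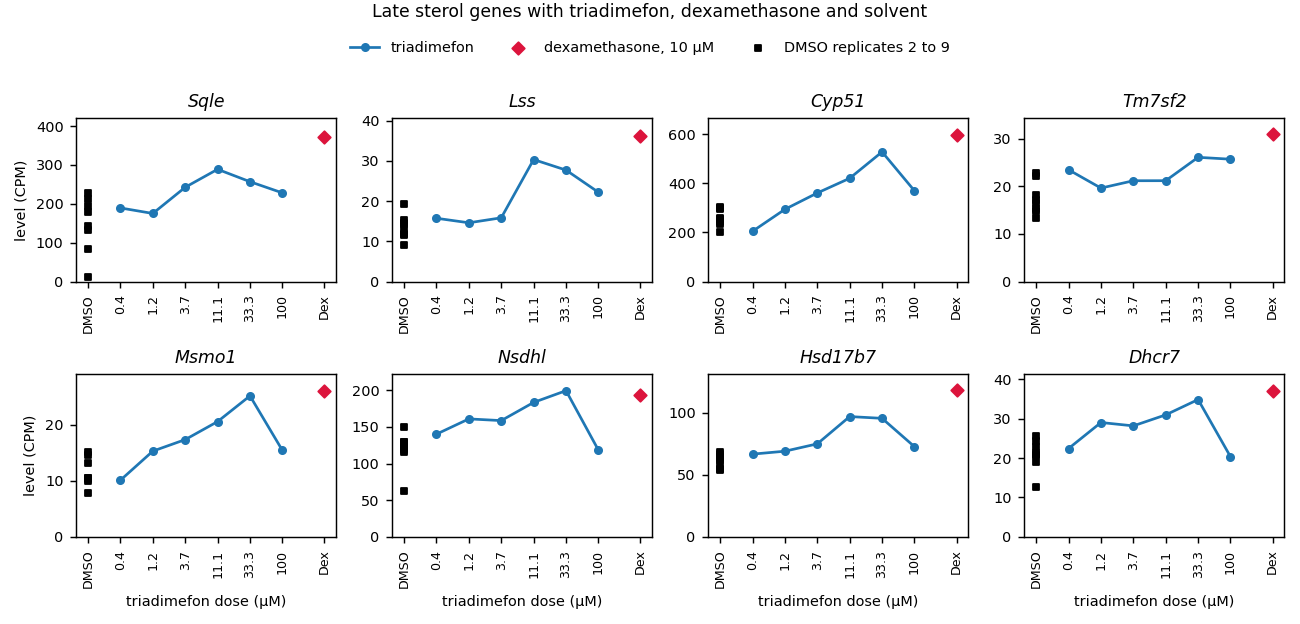
CPM of the 8 genes, 1 panel per gene, with triadimefon by dose from 0.4 to 100 µM, dexamethasone at 10 µM (Dex) and the DMSO libraries as single points. All 8 genes lie above DMSO replicates 2 to 9 at 33.3 µM triadimefon and with dexamethasone, and each of the 8 is lower at 100 µM triadimefon than at 33.3 µM.

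Cyp51 in the other 8 reference libraries, sulforaphane aside, ran from 169 CPM with oltipraz over 214 CPM with 17beta-estradiol and 270 CPM with testosterone to 282 CPM with TCPOBOP, against 203 to 305 CPM in DMSO. Below the DMSO range were 3 of these libraries. They were oltipraz at 169 CPM, the GW compound at 173 CPM and Pregnenolone 16alpha carbinonitrile at 174 CPM. Each lay below the range by less than the fold that calls a library beyond DMSO. Sulforaphane had 852 CPM from 379 counts, in the shallowest library, in which 13.2% of all tested probes were beyond DMSO on the high side and 47.5% on the low side, and Lss there had 4.50 CPM from 2 counts.

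Among the other triazoles, flusilazole left Cyp51 inside the DMSO range up to its top dose: 257, 276, 291, 243, 279 and 440 CPM at 0.14, 0.4, 1.2, 3.7, 11.1 and 33.3 µM. At 33.3 µM flusilazole 6 of the 8 genes were above every DMSO replicate (11.0% of all probes), with 82.0 CPM of Hsd17b7 and 25.1 CPM of Lss, against DMSO maxima of 68.2 and 19.2 CPM. Tetraconazole and hexaconazole gave 244 to 304 CPM and 230 to 285 CPM of Cyp51 over their 6 doses, all within the DMSO range.

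Cyproconazole separated the members. Hsd17b7, the reductase of the demethylation cycle, had 51.4, 54.4, 60.2, 85.0, 88.5 and 109 CPM from 0.4 to 100 µM, against 54.1 to 68.2 CPM in DMSO, with the 3 highest doses above every DMSO replicate. Cyp51 had 257, 271, 251, 282, 337 and 157 CPM at the same doses, so that only 33.3 µM was above and only 100 µM below the DMSO range. In the library at 100 µM, which had 1340300 counts and 28.5% of all tested probes beyond DMSO on the low side, Lss (2.22 CPM from 3 counts), Nsdhl (51.7 CPM), Dhcr7 (2.96 CPM from 4 counts) and Tm7sf2 (7.39 CPM) were beyond DMSO on that side too.

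Triticonazole gave Cyp51 levels of 244, 332, 210, 333, 320 and 526 CPM from 0.4 to 100 µM, without a steady order below the top dose. At 100 µM Cyp51 and Msmo1 (24.8 CPM) were beyond DMSO on the high side, where 5.0% of all probes were. Sqle had 163, 15.8, 38.9, 23.8, 11.2 and 18.1 CPM at the same doses, against 11.1 to 228 CPM in DMSO, so every dose but the lowest was below all DMSO replicates except replicate 5. The library score of these 5 doses ran from 0.45 to 1.09, and 4 of them are among the 12 libraries above 0.5.

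With the imidazoles the highest Cyp51 level was 315 CPM, against 305 CPM in the highest DMSO replicate. Imazalil gave 280, 227, 215, 257, 259 and 283 CPM and triflumizole 315, 250, 284, 279, 239 and 213 CPM from 0.14 to 33.3 µM. Dhcr7, the reductase of the last step, had 26.3, 12.8, 18.0, 18.8, 15.3 and 6.44 CPM with imazalil, against 12.5 to 25.6 CPM in DMSO, and its lowest value, at 33.3 µM, was below every DMSO replicate.

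Among the 21 dose series of other chemicals, oxadiazon, a herbicide, was the only one with a library in which 6 of the 8 genes were above every DMSO replicate. Cyp51 had 228, 228, 198, 303, 406 and 313 CPM and Hsd17b7 48.2, 45.4, 50.3, 61.3, 96.4 and 82.9 CPM from 0.4 to 100 µM. At 33.3 µM 6 of the 8 genes were above every DMSO replicate (8.63% of all probes), with a median log2 difference of 0.65, and none reached the fold that calls a library beyond DMSO.

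The lowest levels came from few libraries. Fludioxonil at 100 µM had 111 CPM of Cyp51, 28.9 CPM of Hsd17b7, 5.91 CPM of Lss and 8.87 CPM of Dhcr7, all 4 beyond DMSO on the low side, where 8.02% of all probes were, and 6 of the 8 genes were below every DMSO replicate (23.1% of all probes). Dithiopyr at 33.3 µM had 127 CPM of Cyp51, 4.11 CPM of Msmo1, 4.40 CPM of Dhcr7 and 6.45 CPM of Tm7sf2, again all beyond DMSO on the low side (13.6% of all probes), with 5 of 8 genes below every DMSO replicate (26.8%). PFOA at 100 µM had 0 counts of Msmo1 among 2304919, in a library with 30.4% of all probes beyond DMSO on the low side. With the TMM library size of 1752246, from which its CPM are computed, 0 counts allow up to 1.71 CPM by counting error alone. In the same PFOA library Nsdhl (30.2 CPM) and Dhcr7 (2.85 CPM from 5 counts) were also beyond DMSO on the low side. Both values were the lowest of the dose libraries for their gene. Cyp51 had 276 CPM there, inside the DMSO range.

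Each chemical's dose trend was tested with edgeR's quasi-likelihood test on log2(1 + dose), with plate as a factor, and is given as the fitted log2 change at 33.3 µM ± SE relative to DMSO; the p-values measure the spread between libraries, which may be technical. All trends share the same 8 DMSO libraries. Of 232 trends (8 genes by 29 chemicals), 2 passed a Benjamini-Hochberg adjusted p of 0.05, and over all probes 1.66% of the trends did. At an unadjusted p under 0.05 there were 38 of the 232, or 16.4%, against 12.0% over all probes.

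Hsd17b7 rose with cyproconazole, by 0.70 ± 0.15 (adjusted p = 0.013), in a fit where 5.83% of all probes rose. The call was lost without the 100 µM library (0.64, adjusted p = 0.15) and with all 9 DMSO libraries (0.69, adjusted p = 0.41). Dhcr7 fell with imazalil, by 1.29 ± 0.40 on the log2 scale (adjusted p = 0.049), where 2.87% of all probes fell; without the library at 33.3 µM the fitted change was -0.66 (adjusted p = 1.0), and the call was also lost without DMSO replicate 2 or 3. In the same fits the hepatocyte marker Tf fell by 1.41 with cyproconazole and by 1.40 with imazalil, and the macrophage marker Cd68 rose by 2.85 with imazalil. Other markers of these cell types are not given for these fits, so the values stand for single genes and not for a cell type. The part of these in the member trends was not tested.

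**Figure D3:**
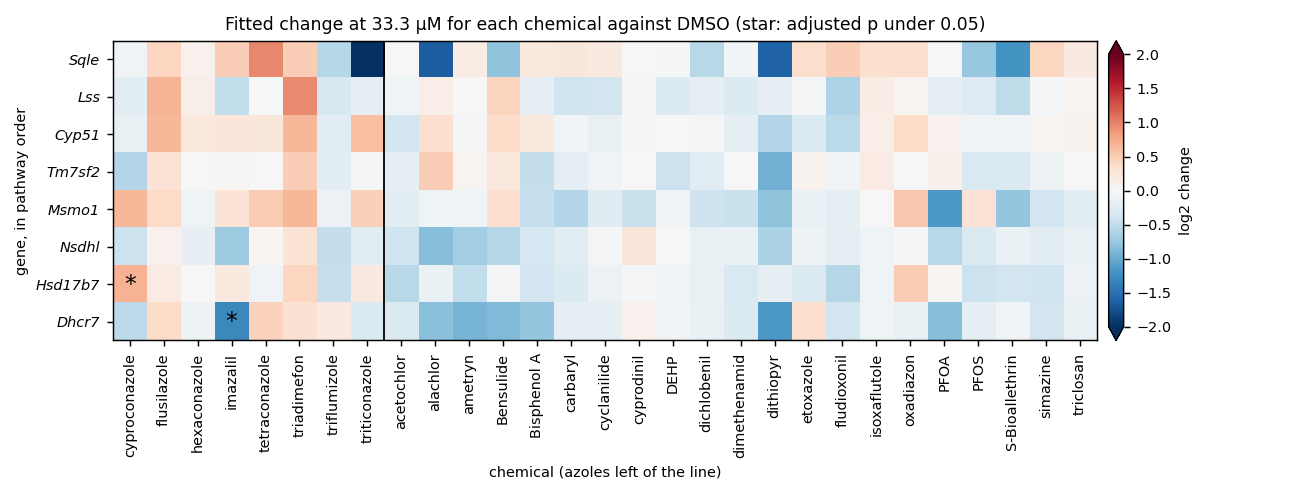
Fitted log2 change at 33.3 µM relative to DMSO for the 8 genes (rows) and 29 chemicals (columns), with a star where the adjusted p is under 0.05. The 2 stars are Hsd17b7 with cyproconazole (0.70) and Dhcr7 with imazalil (-1.29); the most negative value, -2.51 for Sqle with triticonazole, has no star.

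The triadimefon trends of the members missed the threshold: 0.67 ± 0.18 for Cyp51 (95% interval 0.30 to 1.04, adjusted p = 0.095), 0.95 ± 0.23 for Lss (adjusted p = 0.061) and 0.66 ± 0.24 for Msmo1 (adjusted p = 0.25), in a fit where 0.561% of all probes rose. The Cyp51 trend passed under 6 other settings, among them without the 100 µM library (1.02, adjusted p = 0.019), without DMSO replicate 5 (0.66, adjusted p = 0.040) and in DESeq2 (0.67, adjusted p = 0.023). Of the list genes, Acat2 of the mevalonate pathway rose by 1.05 ± 0.13 (adjusted p = 0.00062) and Fdps by 0.98 (adjusted p = 0.035), as did the SREBP gene Srebf1, by 1.74 (adjusted p = 0.00029), and Insig1, whose product holds SREBP in the endoplasmic reticulum, by 1.35 (adjusted p = 0.017). The median trend was 0.49 over the 8 genes and 0.52 over the 9 mevalonate genes.

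Triticonazole gave a fitted 0.60 ± 0.17 for Cyp51 and -2.51 ± 0.72 for Sqle (adjusted p = 0.065 for each), and flusilazole 0.67 ± 0.19 for Cyp51 (adjusted p = 0.16). Without DMSO replicate 5 and the libraries of score above 0.5, only the 0.4 and 3.7 µM libraries of triticonazole were left and the fitted Cyp51 change was -0.56 (adjusted p = 0.55). Dithiopyr gave -0.59 for Cyp51, -1.16 for Dhcr7 and -0.96 for Tm7sf2, with adjusted p from 0.064 to 0.098. Over the 29 chemicals the fitted sign was negative for Nsdhl in 24, for Dhcr7 in 23 and for Hsd17b7 in 21. It was split for Cyp51 into 14 positive and 15 negative. These trends share the same DMSO libraries, so the signs are not separate observations. The median fitted change over all probes was negative with most chemicals, and ran from -0.067 with cyproconazole to 0.014 with ametryn. The share of all probes with such sign counts is not given here, so the counts cannot be read as particular to these genes.

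The 8 azoles were then set against the other 21 chemicals as classes, in 1 fit over the 5 doses that all chemicals share. Each chemical has its own fixed slope in this fit. The SE and p-values of the class comparisons therefore measure the spread of libraries around these slopes, and not the spread between chemicals of a class. For 4 of the 8 genes the mean slope of the azoles was above that of the others at an adjusted p under 0.05. In this comparison 4.36% of all probes were called higher and 4.93% lower. The difference at 33.3 µM was 0.29 ± 0.07 for Cyp51 (adjusted p = 0.00096), 0.32 ± 0.06 for Hsd17b7 (adjusted p = 6.1e-05), 0.46 ± 0.10 for Msmo1 (adjusted p = 0.00099) and 0.29 ± 0.10 for Lss (adjusted p = 0.048). Dhcr7 (0.27, adjusted p = 0.078), Tm7sf2 (0.14), Nsdhl (0.03) and Sqle (0.03 ± 0.27) did not pass. The median difference was 0.28 over the 8 genes and 0.007 over all probes.

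The libraries at 33.3 µM show what these class slopes rest on. Cyp51 had a lowest, median and highest level of 213, 302 and 528 CPM in the 8 azole libraries and of 127, 274 and 406 CPM in the 21 others, against 203, 258 and 305 CPM in DMSO. Above every DMSO replicate were 4 of 8 azole libraries (14.8% over all probes) and 2 of 21 others (12.5%), and 3 of the 21 others were below (12.6%). Hsd17b7 had 45.2, 66.8 and 95.3 CPM with azoles and 39.3, 51.2 and 96.4 CPM with the others, against 54.1, 62.2 and 68.2 CPM in DMSO: 4 of 8 azole libraries were above DMSO and 15 of the 21 others were below. The ranges of azoles and others overlapped for both genes. Without the 33.3 µM libraries 0 of the 8 genes passed in azoles minus other chemicals, and 5 had an unadjusted p under 0.05. The share of all probes for that setting is not given here.

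Tested against DMSO on their own, the azoles rose for the same 4 genes, by 0.29 for Cyp51 (adjusted p = 0.00073), 0.32 for Msmo1 (adjusted p = 0.020), 0.27 for Lss (adjusted p = 0.048) and 0.20 for Hsd17b7 (adjusted p = 0.015), where 6.36% of all probes rose. The 21 other chemicals had 0 of 8 genes called by the edgeR test, and 2 at an unadjusted p under 0.05 (Dhcr7 at -0.20 and Hsd17b7 at -0.12), where 3.98% of all probes were called in either direction and 15.2% had such a p.

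The Cyp51 and Lss calls depended on triadimefon. Without it the difference was 0.19 for Cyp51 (adjusted p = 0.051) and 0.13 for Lss (adjusted p = 0.47), while Hsd17b7 (0.24, adjusted p = 0.0057) and Msmo1 (0.34, adjusted p = 0.025) still passed. Within plate 1, with 5 azoles and 9 others, 0 of 8 genes passed, where 2.39% of all probes were higher, and 4 had an unadjusted p under 0.05, as did 20.7% of all probes; Cyp51 differed there by 0.20 ± 0.07 (adjusted p = 0.088) and Hsd17b7 by 0.23 (adjusted p = 0.065). Within plate 2, with 2 azoles and 12 others, Hsd17b7 (0.44 ± 0.11, adjusted p = 0.0060) and Msmo1 (0.72 ± 0.17, adjusted p = 0.0033) passed where 8.11% of all probes were higher, and Cyp51 did not (0.28, adjusted p = 0.13). Plate 3 gives no such value, since triadimefon was its only dose series and was compared there with DMSO replicates 7 to 9.

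Genes of the steps before squalene were also higher with azoles. In the counts of this paragraph, higher and lower mean an adjusted p under 0.05. Of the 9 tested mevalonate genes, 4 were higher with azoles and 0 lower, with a median difference of 0.33; among the 4 were Fdft1, the squalene synthase, by 0.49 (adjusted p = 2.0e-05), Acat2 by 0.36 and Idi1 by 0.37. Of 10 tested SREBP pathway genes 4 were higher, among them Stard4 by 0.26, Insig1 by 0.57 and Insig2 by 0.35, and 0 were lower. The electron donors Cyb5a, by 0.55, and Por, by 0.41, were higher as well, 2 of 3 tested. Of the 7 hepatocyte markers 3 were lower (Tf at -0.36, Alb at -0.35 and Serpina1 at -0.13), 0 of 5 tested macrophage markers passed, and the part of this in the member differences was not tested.

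Among the azoles, the 2 imidazoles were compared with the 6 triazoles, whose ring holds an additional nitrogen. Here too the p-values leave out the spread between compounds of a class, and the imidazoles are only 2 compounds. The imidazole slopes were lower at an adjusted p under 0.05 for 5 of the 8 genes. Of all probes 3.55% were called lower and 5.68% higher. The difference was -0.41 ± 0.13 for Cyp51 (adjusted p = 0.032), -0.43 ± 0.12 for Hsd17b7 (adjusted p = 0.013), -0.66 ± 0.20 for Lss (adjusted p = 0.021), -0.67 ± 0.21 for Dhcr7 (adjusted p = 0.023) and -0.51 ± 0.16 for Nsdhl (adjusted p = 0.029). Msmo1 (-0.57, adjusted p = 0.055), Tm7sf2 (-0.16) and Sqle (0.38) did not pass. Without the 33.3 µM libraries 0 of the 8 genes passed, and 2 had an unadjusted p under 0.05. The share of all probes for that setting is not given here. Both imidazoles were on plate 1, and within that plate, against its 3 triazoles, 0 of 8 genes passed, where 0.208% of all probes were lower, and 4 had an unadjusted p under 0.05, as did 11.9% of all probes, with -0.27 for Cyp51 (adjusted p = 0.33) and -0.64 for Dhcr7 (adjusted p = 0.19).

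Without triadimefon 0 of the 8 genes passed, where 2.8% of all probes were lower; 6 had an unadjusted p under 0.05, as did 23.5% of all probes, and the smallest adjusted p was 0.064 for Hsd17b7. Without imazalil only Hsd17b7 did (-0.66, adjusted p = 0.016), and without triflumizole Dhcr7 (-1.28), Lss (-0.82) and Nsdhl (-0.55) did. Of the mevalonate genes, Mvd (-0.89), Hmgcs1 (-0.83) and Mvk (-0.62) were lower with imidazoles and Ggps1, of the branch to prenylation, was higher (1.0). The macrophage marker Cd68 was higher, at 1.35, and the hepatocyte marker Tf lower, at -0.53, in the same comparison. Other markers of these cell types are not given for it, so the values stand for single genes and not for a cell type. The part of these in the member differences was not tested.

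**Figure D4:**
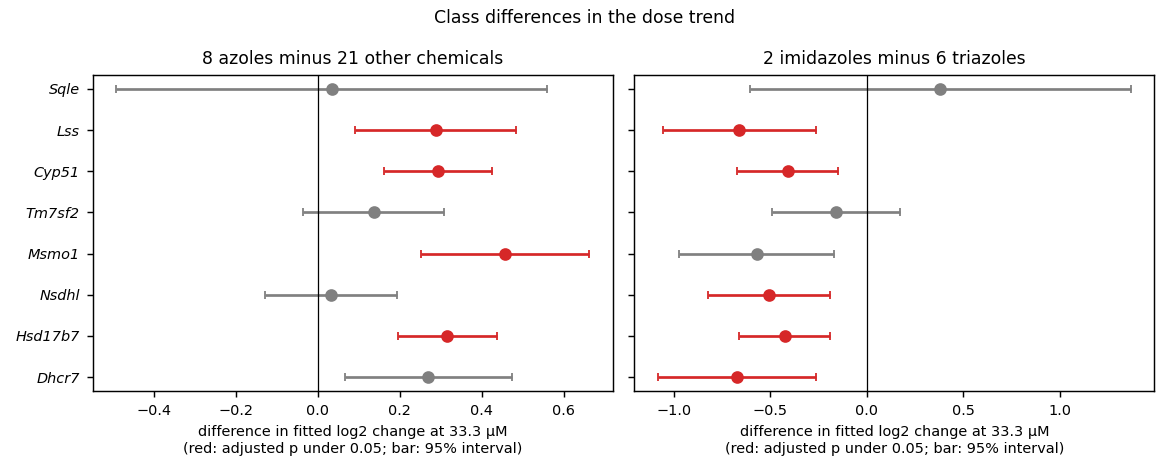
Difference in fitted log2 change at 33.3 µM for the 8 genes, azoles minus the other chemicals (left) and imidazoles minus triazoles (right), with 95% intervals; red marks an adjusted p under 0.05. In the left panel the 4 red genes lie above 0, and in the right panel the 5 red genes lie below it. The Sqle interval is the widest in both.

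Single compounds were compared in 33 pairs over the same 5 doses: 28 pairs of azoles, 3 of the chloroacetamides acetochlor, alachlor and dimethenamid, PFOA with PFOS, and ametryn with simazine, with p-values adjusted over all probes and pairs together. Of the 264 member differences 35 passed, against 4.76% over all probes, and 34 of the 35 were among the 224 of the azole pairs (5.19% over all probes). Triadimefon took part in 17 of them, imazalil in 11, triticonazole in 10, triflumizole in 9 and cyproconazole in 7. Without the 33.3 µM libraries 0 of the 264 passed, where 0.188% over all probes did, and 57 had an unadjusted p under 0.05, against 8.86% over all probes.

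For Cyp51, triadimefon was higher than triflumizole by 1.15 ± 0.26 (adjusted p = 0.0024), and hexaconazole (-0.93), imazalil (-0.93) and tetraconazole (-0.89) were lower than triadimefon (adjusted p from 0.016 to 0.023). Flusilazole was higher than triflumizole by 0.67 ± 0.21 (adjusted p = 0.049), which is the only Cyp51 difference called between chemicals of 1 plate. Both imidazoles differed in Cyp51 by 0.22, imazalil minus triflumizole, with a 95% interval from -0.21 to 0.64, and the triazoles hexaconazole and tetraconazole by -0.03, from -0.46 to 0.39.

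The other genes separated other azoles. For Hsd17b7, cyproconazole was higher than triflumizole (1.05, adjusted p = 0.00042), tetraconazole (0.68), hexaconazole (0.65) and triticonazole (0.63). For Dhcr7, imazalil was lower than triadimefon (-1.83, adjusted p = 0.0016), tetraconazole (-1.43) and triflumizole (-1.22), and cyproconazole (1.41) and flusilazole (1.32) were higher than imazalil. For Lss, imazalil was lower than triadimefon (-1.79, adjusted p = 0.0011), and triadimefon was higher than triticonazole (1.58) and triflumizole (1.42).

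Outside the azoles the only call was Msmo1 in PFOA minus PFOS, the carboxylic and the sulfonic perfluorinated acid, at -1.198 ± 0.34 (95% interval -1.88 to -0.52, adjusted p = 0.023). Msmo1 had 6.37, 9.85, 6.71, 9.29 and 7.56 CPM with PFOA and 13.3, 11.0, 9.72, 16.6 and 16.7 CPM with PFOS from 0.4 to 33.3 µM, from 26 to 89 counts, and PFOA was lower at each dose. Cyp51 in the same pair differed by -0.14, from -0.56 to 0.28, and in ametryn minus simazine by -0.00, from -0.43 to 0.43. Acetochlor minus alachlor stood at -0.64 for Cyp51, from -1.07 to -0.21, which did not pass over all pairs (adjusted p = 0.068).

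Sqle made 7 of the 35 calls, all against triticonazole: each of the 7 other azoles was higher, by 3.33 to 4.72. With the library score as a covariate these differences were 0.41 to 1.88, and 2 of the 7 passed, cyproconazole at 1.88 and triadimefon at 1.70. In the 12 treated libraries of score above 0.5 Sqle had 11.2, 20.98 and 42.9 CPM as lowest, median and highest, and in the other 162 dose libraries 25.1, 155 and 331 CPM. Over 191 libraries the Pearson r of log2 CPM with the score was -0.89 for Sqle, -0.74 for Nsdhl and -0.47 for Dhcr7, and it was 0.15 for Cyp51, 0.06 for Hsd17b7 and -0.06 for Lss, as a description of libraries that share plates and depth.

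**Figure D5:**
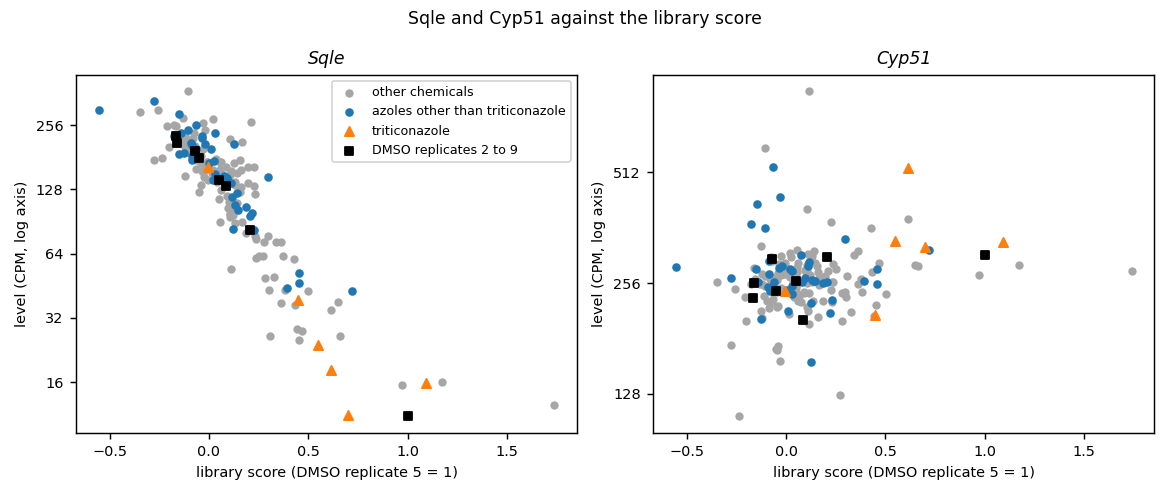
Sqle and Cyp51 level (CPM, log axis) against the library score, 1 point per library, with triticonazole as triangles and a score of 1 in DMSO replicate 5. Sqle is lower at higher scores, with 11.2 CPM in the lowest treated library, while Cyp51 in the libraries of score above 0.5 runs from 240 to 526 CPM.

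Over the same 191 libraries the probes with a pattern most like that of Cyp51, among 5532 abundant ones, included Hsd17b7 (Pearson r = 0.60), Acat2 (0.60), Acss2 (0.58), Mvd (0.54), Idi1 (0.53), Wfdc2 (0.41), AABR07041771.1 (0.41) and Cndp2 (0.40), all among the first 10. Of the 5 genes of the pathway abundant enough to be ranked beside Cyp51, Hsd17b7 was the only one among those 10, and Tm7sf2 ranked 32 (0.34). Lss and Msmo1 were too low to be ranked, and Msmo1 had an r of 0.41 with Cyp51. Nsdhl and Dhcr7 had an r of 0.73 with each other, and 0.64 after the library score was taken out, while Sqle and Nsdhl had 0.71 before and 0.17 after.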

How the data were processed

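TempO-Seq counts, whole numbers per probe and library, were deposited by the authors as 1 table. Bowtie is named in the submitters' processing notes; its version, the probe reference and any count filter are not given in the sources used here. Symbols are the probe names without the final number. Groups, doses and plates were taken from the labels, and every column was matched. The labels state a log2 step-down, while the labelled doses step by about a factor of 3.

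The genes, gene lists, tests and the omission of DMSO replicate 1 were chosen with earlier results of these data known. Probes with at least 10 counts at the median depth (1.74 CPM) in 6 libraries were tested. Counts were scaled by TMM and fitted with edgeR 4.0.16 (limma 3.58.1, R 4.3.3; quasi-likelihood F test) with a dose score, log2(1 + dose in µM), and plate as a factor, and p-values were adjusted by the Benjamini-Hochberg method over all tested probes, with a threshold of 0.05. Dose trends had a fit for each chemical; classes and pairs had 1 fit over the 5 shared doses. Log2 CPM used a prior count of 2. The library score is the projection on DMSO replicate 5 minus the mean of replicates 4 and 6 over 5527 abundant probes. The fitting script was tested on simulated data.

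Named were the 9 genes, up to 4 called members of each fixed list by smallest adjusted p, and the 10 probes most like Cyp51. Some genes that this rule names are not reported here. Alternatives were the 9 DMSO libraries, DESeq2 (1.42.0) size factors and test, no count filter, no plate term, dose ranks, the library score as a covariate, single fits, other dose sets and left-out libraries. Those with DMSO replicate 5 or the libraries of high score left out, with 1 plate alone, without each imidazole, and with all 6 doses for imidazoles minus triazoles were added after the data were seen. Counting error alone underlies the limit given for 0 counts, which is 3 counts.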

Additional observations from a re-analysis of the deposited data

Results flagged for a closer look

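The first 6 of the following values concern single DMSO libraries whose gap to the nearest other DMSO library, as a share of the group's range, exceeded Dixon's 95% critical value; 16 groups of DMSO values were looked at, and chance flags about 5% of groups. In the 9 DMSO libraries, replicate 1 was the highest for Sqle (gap share 0.789), Nsdhl (0.513) and Hsd17b7 (0.943) and the lowest for Tm7sf2 (0.558). Replicate 5 was the lowest for Dhcr7 in the 9 libraries (0.502) and for Nsdhl among replicates 2 to 9 (0.605).

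DMSO replicate 1 entered no main comparison, and 4 of the 8 genes were above the range of the other 8 DMSO libraries in it. The share of all probes outside that range in it is not given here, so the count is not particular to these genes. It had 1042 CPM of Sqle, against 11.1 to 228 CPM in replicates 2 to 9. It had 302.7 CPM of Hsd17b7, against 54.1 to 68.2 CPM, 240.9 CPM of Nsdhl, against 63.0 to 150 CPM, and 17.94 CPM of Msmo1, against 7.75 to 15.1 CPM. Below the range in the same library were Cyp51 at 195 CPM (lowest other replicate 203 CPM), Lss at 6.65 CPM (9.05 CPM) and Tm7sf2 at 1.33 CPM (13.3 CPM). Dhcr7, at 21.3 CPM, was inside it.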

How the results depend on the processing

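The 2 dose trends called among 232 became 0 with all 9 DMSO libraries (29 at an unadjusted p under 0.05, against 7.66% over all probes), 10 without a plate term, 19 with the library score as a covariate, 4 without the highest dose, 15 without DMSO replicate 5, 15 without that replicate and the libraries of score above 0.5, 17 in 1 fit of all chemicals and 9 in DESeq2. The 1 call of cyproconazole became 0 with all 9 DMSO libraries, with dose ranks and without the highest dose, 2 without a plate term, with the library score, in 1 fit and in DESeq2, and 3 without DMSO replicate 5 or also without the libraries of score above 0.5; leaving out 1 library gave 1 to 3. The 1 call of imazalil became 0 with all 9 DMSO libraries, no filter, dose ranks and without the highest dose, and 2 with the library score and without DMSO replicate 5, alone or with the libraries of score above 0.5; leaving out 1 library gave 0 to 1. The 4 calls of azoles minus other chemicals became 2 with all 9 DMSO libraries and 0 without 33.3 µM. They became 0 within plate 1 and 2 within plate 2, and leaving out 1 azole or DMSO library gave 2 to 5. The 5 calls of imidazoles minus triazoles became 3 with all 9 DMSO libraries, 1 with all 6 doses and 0 without 33.3 µM. They became 0 within plate 1, and leaving out 1 azole or DMSO library gave 0 to 6. The 35 calls of the pairs became 0 without 33.3 µM, and the 49 values beyond DMSO became 31 against the same-plate DMSO mean. The sign turned for Cyp51 with triticonazole without the libraries of score above 0.5 (-0.56) and for Msmo1 with triticonazole without the highest dose (-0.13). The share of all probes called also moved with the setting. Over the 29 dose trends it was 1.66% in the main fits and 0.209% with all 9 DMSO libraries. For most other settings this share is not given here, so the changed counts cannot be read as particular to the 8 genes. The causes of these shifts were not tested.

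No paired analysis was possible because the DMSO numbers only name libraries and each chemical and dose has 1 library. The alternative with other probes of a gene was not run, since each of the 8 genes has 1 probe. With 1 library per dose a trend rests on 6 treated libraries, and Lss, Msmo1, Dhcr7 and Tm7sf2 rest on few counts, down to 34 in a DMSO library.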
